A study of Mus musculus with 12 samples.

Results

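The response of healing mouse skin to traction was examined over both genotypes of the experiment together, as the traction effect that remained after the difference between genotypes was fitted. All 12 libraries of the series entered the comparison: the 6 traction libraries, 3 from *Tem1*WT/WT (WTTR) and 3 from *Tem1*lacZ/lacZ mice (lacZTR), against the 6 sham libraries, 3 from *Tem1*WT/WT (WTSH) and 3 from *Tem1*lacZ/lacZ mice (lacZSH). In *Tem1*lacZ/lacZ mice the only exon of *Tem1* is replaced in the germ line with a *lacZ* reporter, so the gene is missing from every cell of the animal, and the line had been backcrossed to C57BL/6J. All animals were male and 8 to 12 weeks old. Each received a 1.5-cm split wound in the back skin, and each carried a plastic device on the scar from day 6. For traction it was lengthened daily by 1 mm until 8 mm had been reached, whereas sham mice wore it at its starting length. Each library came from the scar of 1 mouse, with 3 mice per group, and RNA of the whole scar piece was read. Values are therefore averages over fibroblasts, vessels, epidermis, glands, leukocytes and any attached fat or muscle, and a gain of cells of a type cannot be told apart from more RNA per cell.

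A healing wound is closed by fibroblasts that secrete collagen and contract, by new capillaries that sprout from existing vessels, and by epidermis that spreads over both. Stretch acts on the fibroblasts through integrins and focal adhesions, the contacts that tie the matrix to the actin skeleton, and through factors such as YAP and TAZ and the TGF-β pathway, which raise collagen synthesis. Pulled wounds in mice heal as raised, collagen-rich scars and serve as a model of hypertrophic scarring. Glands and hair follicles are normally missing from the scar itself and remain in the skin beside it.

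Library totals lay between 41536788 and 64644293 counts on genes, and 18853 of the 35976 listed genes passed the filter on low counts and were tested. *Cd248*, the gene symbol of *Tem1*, lay between 119 and 193 CPM (counts scaled by TMM to a common library size) in the WTSH libraries, between 92.4 and 337 CPM in the WTTR libraries and between 0 and 0.248 CPM in the 6 *Tem1*lacZ/lacZ libraries, so every library matched its labelled genotype. WTTR library 1 lay farthest from the mean of its own group. The share of mitochondrially encoded transcripts was 3.95% to 4.38% in WTSH, 1.48% to 3.17% in WTTR, 4.95% to 5.34% in lacZSH and 3.69% to 4.92% in lacZTR libraries. Its part in the results was not tested.

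Over both genotypes together, traction was accompanied by higher RNA of 13 of 15 blood endothelial markers, 5 of 10 fibrillar collagens and 8 of 16 collagen-modifying enzymes and by lower RNA of 4 of 11 sebaceous gland markers. In the additive model, 1167 genes (6.19% of those tested) had an adjusted p under 0.05. Of these, 860 (4.56%) were higher and 307 (1.63%) were lower with traction, so that 73.7% of the called genes rose. With upper quartile normalization, which placed the median log2 fold change of all genes at -0.10 in place of -0.02, 757 genes were called and 59.3% of them rose. The smallest adjusted p was 0.0307, and the calls therefore lay close below the threshold. They disappeared or nearly disappeared when 1 of 7 libraries was left out. The count fell to 0 without WTSH 1, WTSH 3, lacZSH 2, WTTR 3 or lacZTR 2, to 1 without WTSH 2 and to 3 without lacZTR 3. It was 257 without WTTR 2, 758 without lacZSH 3 and 3368 without lacZTR 1. The number of genes at an unadjusted p under 0.05 moved less, from 5422 with all libraries to between 4343 and 6689 with 1 left out. All 1167 called genes kept their direction in each of the 12 fits. They were called on the same libraries, of which each fit reused all but 1, so a kept direction was close to assured.

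**Figure D1:**
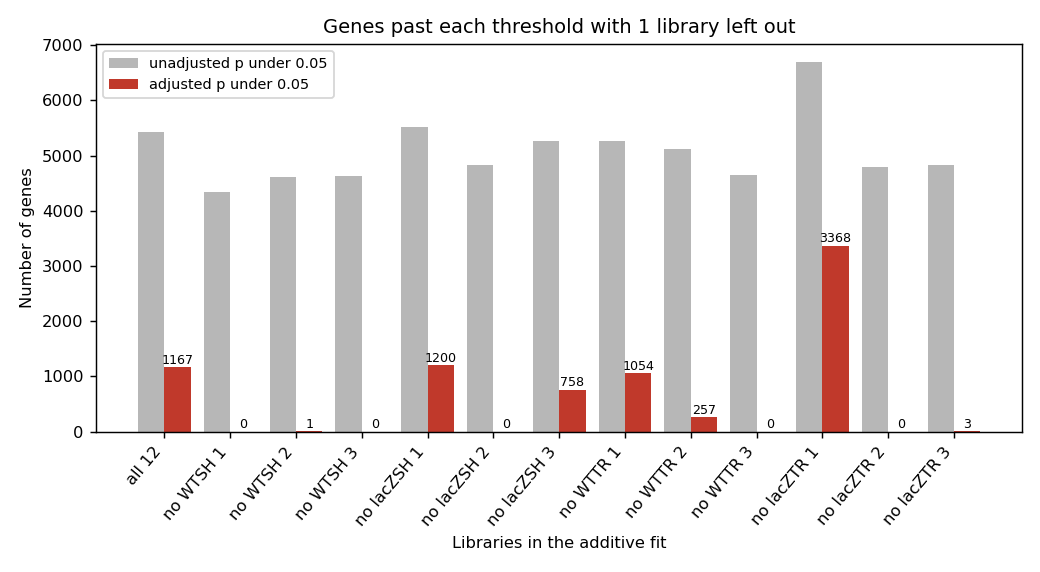
Number of genes past each threshold in the additive model (y axis, number of genes) with all 12 libraries and with each library left out in turn (x axis, the libraries in the fit). Red bars, printed with their values, count genes with an adjusted p under 0.05 and grey bars those with an unadjusted p under 0.05. The red bars range from 0 to 3368 while the grey bars stay between 4343 and 6689.

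A change shared by both genotypes was taken as a called gene in which the 3 traction libraries of each genotype lay beyond the 3 sham libraries of the same genotype, in the same direction. This held for 554 genes (2.94% of those tested, and 47.5% of those called), 357 higher and 197 lower. Over all genes tested, called or not, such a separation in both genotypes was found for 5.46%, in 3.07% upward and in 2.4% downward. The median log2 fold change of the 357 genes was 0.91, with 1.05 in *Tem1*WT/WT and 0.72 in *Tem1*lacZ/lacZ mice, and that of the 197 genes was -1.05, with -1.26 and -0.82. In 170 called genes, 110 higher and 60 lower, the 6 traction libraries lay beyond the 6 sham libraries whatever the genotype, which was found for 1.46% of all genes tested (0.859% upward and 0.605% downward). Within *Tem1*WT/WT mice alone, the libraries of 96.7% of the called genes did not overlap, against 35.7% of all genes, and within *Tem1*lacZ/lacZ mice alone those of 50.5% did not, against 12.9%. Calling used these same libraries, so larger shares among called genes are favoured by the selection. The genes described next by name were taken from these 170 and from 42 gene lists. Of the 646 genes on the lists 635 passed the filter, and 89 of those were called. The share called in each list stands against the 6.19% of all genes tested, and no excess in a list was tested.

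Among the strictly separated genes with the smallest p that were not also among the largest changes were *Snai1*, *Egfl7*, *Kcnk5*, *Cldn5* and *Cmah*. *Snai1*, on chromosome 2 (GRCm38, 167538195 to 167542814), encodes Snail, a zinc finger repressor of epithelial genes. It lay between 3.70 and 6.59 CPM in the 6 sham libraries (median 4.74) and between 9.44 and 47.2 CPM in the 6 traction libraries (median 24.1). The 3 WTTR libraries at 31.0 to 47.2 CPM were above the 3 lacZTR libraries at 9.44 to 17.3 CPM, and both were above every sham library. The log2 fold change was 2.1 (SE 0.27, adjusted p = 0.0307), with 2.70 in *Tem1*WT/WT and 1.49 in *Tem1*lacZ/lacZ mice. *Egfl7* and *Cldn5* are vessel genes described with the endothelial markers. *Kcnk5*, which encodes a potassium channel, was lower in a narrow range, at 5.28 to 8.36 CPM in sham and 3.13 to 4.54 CPM in traction libraries (log2 fold change -0.86, SE 0.12, adjusted p = 0.0307). *Cmah*, the enzyme that makes the sialic acid Neu5Gc, was at 55.9 to 92.2 CPM in sham and 30.9 to 47.8 CPM in traction libraries, with log2 fold changes of -1.004 in *Tem1*WT/WT and -1.008 in *Tem1*lacZ/lacZ mice.

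The promoters of these genes are shown because they changed in every traction library of both genotypes. Of these, the 4 with the smallest p in the RefSeq promoter table are given, as the 250 bases before the annotated start on the gene's own strand, 5′ to 3′. *Egfl7* has 3 annotated starts in that table, and the one shown lies before the start of the whole gene. Capitals mark matches to a motif.
Snai1 (GRCm38, plus strand, chr2:167537945-167538194): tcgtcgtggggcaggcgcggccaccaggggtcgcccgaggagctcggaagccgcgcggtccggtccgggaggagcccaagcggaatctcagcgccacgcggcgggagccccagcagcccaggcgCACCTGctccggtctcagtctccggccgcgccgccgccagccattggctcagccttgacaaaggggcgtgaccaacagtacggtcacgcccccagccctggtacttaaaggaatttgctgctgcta
Egfl7 (plus strand, chr2:26580833-26581082): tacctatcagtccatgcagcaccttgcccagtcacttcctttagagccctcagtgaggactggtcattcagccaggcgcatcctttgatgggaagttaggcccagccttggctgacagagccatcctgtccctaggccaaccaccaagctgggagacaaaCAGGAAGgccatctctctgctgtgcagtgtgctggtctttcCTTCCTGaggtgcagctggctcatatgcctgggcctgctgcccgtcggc
Kcnk5 (minus strand, chr14:20181783-20182032): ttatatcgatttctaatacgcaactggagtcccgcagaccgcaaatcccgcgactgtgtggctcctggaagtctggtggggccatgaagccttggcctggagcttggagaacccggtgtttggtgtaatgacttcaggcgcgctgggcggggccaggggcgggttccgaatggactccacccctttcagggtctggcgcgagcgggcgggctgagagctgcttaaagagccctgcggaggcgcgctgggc
Cldn5 (plus strand, chr16:18776597-18776846): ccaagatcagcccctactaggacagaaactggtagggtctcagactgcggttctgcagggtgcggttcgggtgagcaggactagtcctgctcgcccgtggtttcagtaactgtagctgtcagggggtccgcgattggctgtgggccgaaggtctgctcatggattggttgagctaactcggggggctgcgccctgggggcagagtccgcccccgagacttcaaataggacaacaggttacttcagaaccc

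The motifs were searched on both strands. The planned motifs, AP-1 (TGAGTCA), TEAD (GGAATG) and an E-box (CACGTG), had no match in these windows, against 4.43%, 12.6% and 6.05% of the 27025 promoters in the table. An ETS motif (CAGGAAG) and a Snail-type E-box (CACCTG) were added after that result was seen. The window of *Egfl7* held the ETS motif once on each strand, and 10.5% of all promoters held it at least once on either strand. The window of *Snai1* held the Snail-type E-box, as did 17.1% of all promoters. Among the 254 promoters of the 357 higher genes found in the table, the shares were 3.54% for AP-1, 8.27% for TEAD, 9.06% for the CACGTG E-box, 13.4% for ETS and 11.8% for the Snail-type E-box. Among the 142 promoters of the 197 lower genes they were 4.93%, 11.97%, 10.6%, 7.75% and 20.4%. These matches describe letters in the sequence and were not tested as binding sites.

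**Figure D2:**
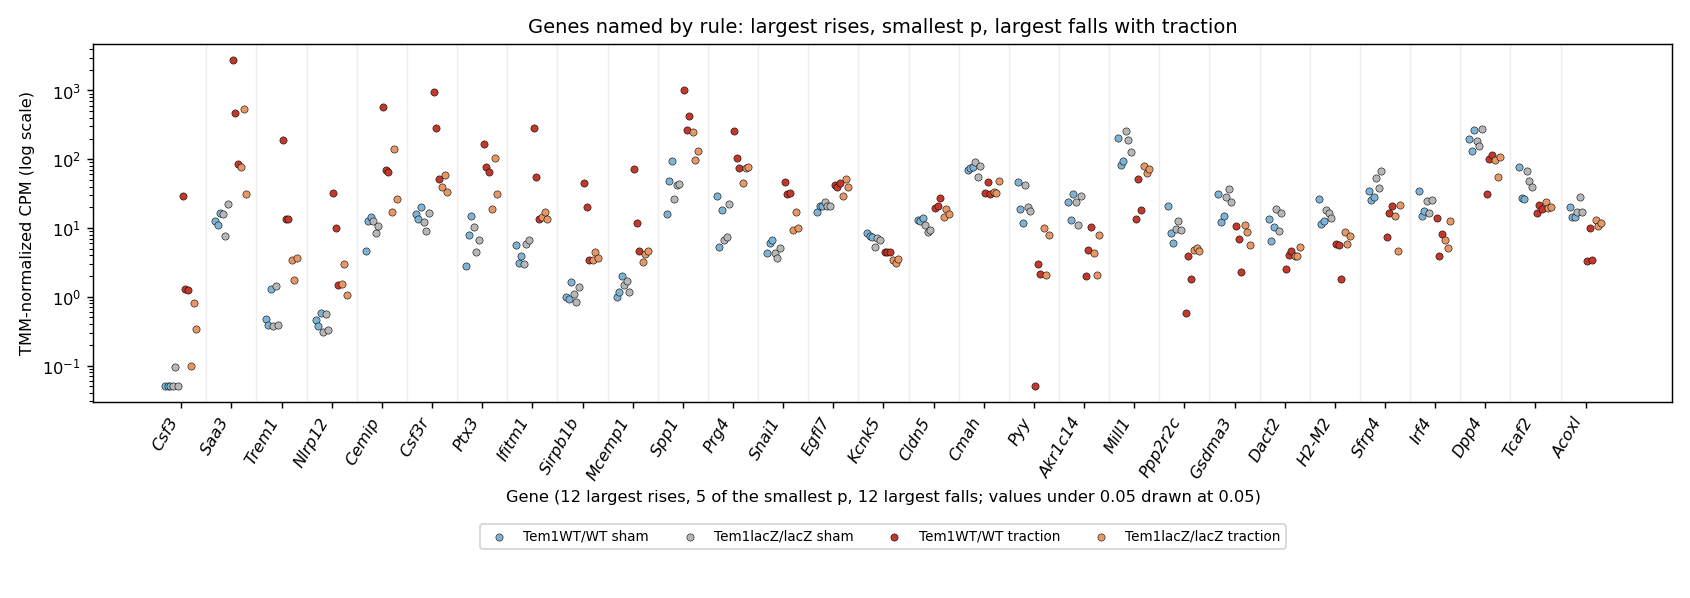
TMM-normalized CPM (y axis, log scale) of the 12 genes with the largest rise, 5 of the smallest p and the 12 with the largest fall (x axis), with 1 point per library, coloured by genotype and treatment, and values under 0.05 CPM drawn at 0.05. In each gene the 6 traction points lie beyond the 6 sham points, by a wide margin for *Saa3* (31.4 to 2750 against 7.69 to 22.5 CPM) and a narrow one for *Kcnk5* (3.13 to 4.54 against 5.28 to 8.36 CPM). For *Csf3* the lowest traction and highest sham points nearly coincide, at 0.0986 and 0.0949 CPM.

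Blood endothelial markers formed the list with the largest share of called members. Of 15 markers tested, 13 rose with traction and 0 fell, against 4.56% of all genes that rose, and their median log2 fold change was 0.89 where that of all genes was -0.02. The median was 1.12 in *Tem1*WT/WT and 0.63 in *Tem1*lacZ/lacZ mice, and all 15 markers had the same sign in both. A shared change as defined above, with libraries separate within each genotype, held for 6 of the 15, against 2.94% of all genes tested. *Eng*, a TGF-β co-receptor of activated endothelium, lay between 28.5 and 56.9 CPM in sham libraries (median 39.8). In traction libraries it was at 167, 91.6 and 160 CPM in WTTR and 45.3, 92.7 and 97.3 CPM in lacZTR (log2 fold change 1.35, SE 0.21, adjusted p = 0.0307). Library lacZTR 1 was the lowest of the 6 and lay inside the sham range of the other genotype, though above every sham library of its own. *Egfl7*, a secreted protein of vessel walls, was at 16.8 to 23.7 CPM in sham and 28.9 to 51.0 CPM in traction libraries with no overlap (log2 fold change 0.99, SE 0.14). *Cldn5*, the claudin of endothelial tight junctions, was at 13.2, 12.6 and 13.8 CPM in WTSH and 19.5, 20.6 and 27.02 CPM in WTTR libraries. In *Tem1*lacZ/lacZ mice it was at 11.1, 8.83 and 9.21 CPM in sham and 14.4, 18.9 and 16.2 CPM in traction libraries, and the log2 fold change was 0.76 in each genotype. *Cdh5*, which encodes VE-cadherin of endothelial junctions, had a log2 fold change of 1.39 (1.60 in *Tem1*WT/WT and 1.18 in *Tem1*lacZ/lacZ mice), *Plvap* of 1.17 and *Pecam1* of 0.79, all called. For these genes traction and sham libraries overlapped in *Tem1*lacZ/lacZ mice. The 2 markers not called were *Vwf* (0.97, adjusted p = 0.0518) and *Tek* (-0.16, adjusted p = 0.665).

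Averaged over the 15 markers as log2 CPM relative to the sham mean of the same genotype, the WTTR libraries lay at 0.911, 0.997 and 1.21 and the lacZTR libraries at 0.209, 0.885 and 0.929, with sham libraries between -0.358 and 0.309. Thus 5 of the 6 traction libraries were above every sham library and lacZTR 1 was not. The summed level of the markers was 537 to 749 CPM in WTSH, 1360 to 1530 CPM in WTTR, 410 to 658 CPM in lacZSH and 600 to 1028 CPM in lacZTR libraries. With each library left out in turn, the median log2 fold change of the markers stayed between 0.80 and 1.04, while the number called ranged from 0 to 14 over all alternatives.

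Of 17 ligands and receptors of angiogenesis signalling, 8 rose and 0 fell, with a median log2 fold change of 0.96, and the estimates of 16 were above 0. The exception was *Tek*, the receptor of the angiopoietins, which is also 1 of the endothelial markers. Among ligands, *Angpt2*, the angiopoietin released by activated endothelium, was at 15.2 to 28.8 CPM in sham and 32.7 to 122 CPM in traction libraries (log2 fold change 1.65, SE 0.27, adjusted p = 0.0307), and *Vegfc*, a ligand for lymphatic and blood vessels, rose from 1.55 to 2.61 CPM to 2.66 to 6.29 CPM. No traction library overlapped a sham library for either ligand. *Apln* also rose (1.36, from 2.18 in *Tem1*WT/WT and 0.54 in *Tem1*lacZ/lacZ mice), with *Aplnr*, its receptor (1.42, from 1.80 and 1.03). Among receptors, *Tie1* (1.30), *Flt4* (1.15), *Nrp2* (0.96) and *Kdr* (0.73) rose. *Flt4*, the receptor of *Vegfc* on lymphatic vessels, was also the only called member of 6 lymphatic markers tested. *Vegfb*, *Nrp1*, *Angpt1* and *Flt1* were not called, at 0.20, 0.35, 0.13 and 0.55, and *Dll4* and *Esm1*, markers of sprouting tips, had values of 0.95 (adjusted p = 0.0703) and 2.16 (adjusted p = 0.0841). Of 8 pericyte markers, which label the cells that wrap capillaries, only *Mcam* was called (0.78), and *Mcam* is also made by endothelium. *Mcam* changed by 1.20 in *Tem1*WT/WT and by 0.36 in *Tem1*lacZ/lacZ mice, where traction and sham libraries overlapped. All 8 estimates were above 0, with a median of 0.59.

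**Figure D3:**
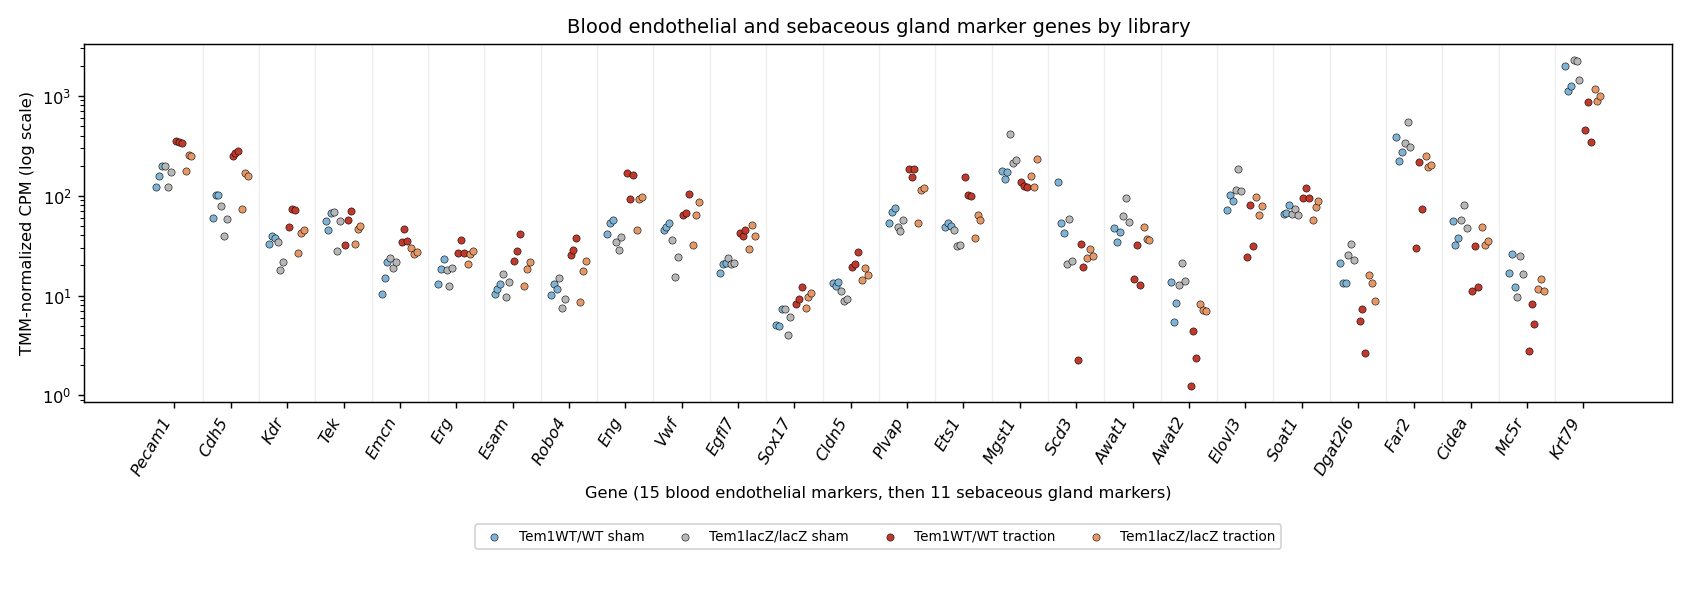
TMM-normalized CPM (y axis, log scale) of 15 blood endothelial and 11 sebaceous gland markers (x axis), with 1 point per library, coloured by genotype and treatment. For *Egfl7* and *Cldn5* the traction points (28.9 to 51.0 and 14.4 to 27.02 CPM) lie above the sham points (16.8 to 23.7 and 8.83 to 13.8 CPM), and for *Krt79* most traction points lie below the sham points (344 to 1175 against 1110 to 2265 CPM).

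Of 10 fibrillar collagens, the rope-forming collagens of the dermis, 5 rose and 0 fell, with a median log2 fold change of 1.15 (1.58 in *Tem1*WT/WT and 1.16 in *Tem1*lacZ/lacZ mice). *Col1a1*, the main collagen of scar, was at 3475, 4635 and 5368 CPM in WTSH and 7601, 12290 and 23370 CPM in WTTR libraries. In *Tem1*lacZ/lacZ mice it was at 3049, 1536 and 2202 CPM in sham and 2700, 8500 and 7091 CPM in traction libraries, so that 1 traction library lay among the sham libraries. Its log2 fold change was 1.56 (SE 0.34, adjusted p = 0.0341). *Col1a2* (1.34) and *Col5a1* (1.54) were called with the same overlap between libraries, and *Col3a1*, the other abundant collagen of young scar, was not (0.85, adjusted p = 0.0875). *Col24a1* had the largest change of the list, at 3.56 to 19.7 CPM in sham and 21.8 to 93.2 CPM in traction libraries (log2 fold change 2.35, SE 0.40). *Col27a1* (1.44) also separated all traction from all sham libraries within each genotype.

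Of 25 other dermal and basement membrane genes, 7 rose and 0 fell. *Col12a1*, a collagen on the surface of fibrils in tissue under load, lay between 181 and 648 CPM in sham and between 824 and 4087 CPM in traction libraries with no overlap (log2 fold change 2.12, SE 0.40, adjusted p = 0.0307). *Nid2* (1.86), *Col18a1* (1.07), *Col4a1* and *Col4a2*, components of the basement membranes of vessels and epidermis, were called as well, with *Col7a1* and *Col16a1*. Of 16 genes that modify and crosslink collagen, 8 rose and 0 fell, among them *Lox* (1.36) and *Loxl3* (1.52), lysyl oxidases that crosslink fibrils, *Plod3* (0.94), a lysyl hydroxylase, and *P4hb*, a subunit of the prolyl hydroxylase. The median log2 fold change of the 16 was 1.21 in *Tem1*WT/WT and 0.40 in *Tem1*lacZ/lacZ mice. A shared change as defined above held for 4 of the 16, against 2.94% of all genes tested. *Lox* was at 189 to 360 CPM in sham and 255 to 1117 CPM in traction libraries, where the lowest value was again lacZTR 1. Of 19 matricellular and scar matrix genes 6 rose and 0 fell, with medians of 1.21 in *Tem1*WT/WT and 0.43 in *Tem1*lacZ/lacZ mice. *Spp1*, which encodes osteopontin and is made by macrophages and other cells of wounds, rose most, from 16.1 to 93.5 CPM in sham to 96.0 to 1019 CPM in traction libraries (log2 fold change 2.76, SE 0.51). *Bgn*, the proteoglycan biglycan, was at 836 to 1186 CPM in sham and 1249 to 3407 CPM in traction libraries (1.08). *Fmod*, another collagen-binding proteoglycan, changed by 1.20 in *Tem1*WT/WT and 1.58 in *Tem1*lacZ/lacZ mice. *Tnc* (2.07, adjusted p = 0.117) and *Postn* (0.27, adjusted p = 0.634) were not called. Of 17 proteases and inhibitors, *Mmp14* (1.10), a collagenase of the cell surface, and *Serpine2* (1.19), a protease inhibitor, were called. The median of the 17 was 1.33 in *Tem1*WT/WT and 0.32 in *Tem1*lacZ/lacZ mice.

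The mean of the fibrillar collagens relative to the sham mean of the same genotype was 1.01, 1.57 and 1.92 in WTTR and 0.289, 1.36 and 1.09 in lacZTR libraries on the log2 scale, with sham libraries between -0.566 and 0.318. Again lacZTR 1 was the traction library inside the sham range. When that library was left out, 3368 genes were called, of which 1164 were among the 1167.

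Fewer growth factor and stretch-sensing genes were called. Of 17 genes of the TGF-β pathway, 2 rose and 0 fell, and both were ligands. *Tgfb3* was at 36.1 to 55.0 CPM in sham and 57.4 to 133 CPM in traction libraries with no overlap, and its log2 fold change was 0.91 in each genotype (SE 0.18 in the additive model, adjusted p = 0.0307). *Tgfb1* changed by 1.38 (SE 0.28, adjusted p = 0.0317), with 1.68 in *Tem1*WT/WT and 1.07 in *Tem1*lacZ/lacZ mice. The mean of the 17 genes was nonetheless above every sham library in 6 of 6 traction libraries, at 0.0975 to 0.823 against -0.108 to 0.0591 on the log2 scale. Their summed level in lacZTR 1, the lowest of these, was 860 CPM and lay inside the lacZSH range of 825 to 994 CPM. Of 17 genes of stretch-sensing channels, integrins and focal adhesion, 4 rose and 0 fell. These were *Itga1* (0.95), a collagen receptor, *Itgb5* (0.81), *Tln1* (0.97), which encodes talin, and *Parva*, and all 17 estimates were above 0. Of 16 YAP/TAZ-TEAD genes, *Tead2* (1.09), *Lats2* (0.67) and *Arhgef17* (0.91) rose and 0 fell. Of 16 contractile genes of myofibroblasts and smooth muscle only *Cnn2*, a calponin, was called (0.59), a share of 6.25% against 6.19% of all genes tested. Of 20 growth factors and receptors 0 were called by edgeR.

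Fibroblast markers split. *Pdgfrb* (1.33), *Pdgfra* (1.12), *En1* (1.63) and *Fbln1* (0.75) rose and *Dpp4* fell, out of 16 tested, and the median log2 fold change was -0.05. *Pdgfrb*, the PDGF receptor of fibroblasts and pericytes, was at 38.3 to 77.1 CPM in sham and 55.4 to 255 CPM in traction libraries. *En1* marks the embryonic lineage of scar-forming fibroblasts of the back, and was at 2.92 to 8.75 CPM in sham, 24.2 to 30.4 CPM in WTTR and 3.70, 14.97 and 13.6 CPM in lacZTR libraries. *Dpp4*, a surface peptidase of fibroblasts of the upper dermis and fascia, was at 131 to 273 CPM in sham and 31.4 to 116 CPM in traction libraries with no overlap. Its log2 fold change was -1.25 in *Tem1*WT/WT and -1.24 in *Tem1*lacZ/lacZ mice (additive -1.24, SE 0.31, adjusted p = 0.0428). *Pi16*, which like *Dpp4* marks fascial fibroblasts, had a value of -1.03 (adjusted p = 0.0770).

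The largest rises belonged to inflammatory genes, and they differed widely between traction libraries. Of the 12 largest, *Saa3*, *Trem1*, *Nlrp12*, *Csf3r*, *Csf3*, *Sirpb1b* and *Mcemp1* belong to the acute phase, to G-CSF signalling or to myeloid cells, and *Ptx3* encodes a secreted pattern receptor. *Saa3*, an acute phase protein made in inflamed tissue, was at 7.69 to 22.5 CPM in sham, 2750, 465 and 85.5 CPM in WTTR and 76.9, 535 and 31.4 CPM in lacZTR libraries (log2 fold change 5.08, SE 1.04, adjusted p = 0.0326). *Csf3r*, the G-CSF receptor of neutrophils, was at 9.14 to 20.1 CPM in sham, 954, 285 and 51.6 CPM in WTTR and 39.7, 58.3 and 33.9 CPM in lacZTR libraries. Its log2 fold change was 3.26 (SE 0.75, adjusted p = 0.0373), with 4.70 in *Tem1*WT/WT and 1.80 in *Tem1*lacZ/lacZ mice. *Csf3*, which encodes the ligand G-CSF, was at 0 in all WTSH libraries and at most 0.0949 CPM in lacZSH, and reached 29.7, 1.28 and 1.23 CPM in WTTR and 0.0986, 0.820 and 0.339 CPM in lacZTR libraries. Its separation of lacZTR 1 (0.0986 CPM) from lacZSH 2 (0.0949 CPM) rested on very few reads and is not a measured difference. *Ptx3* was more even, at 2.78 to 14.7 CPM in sham, 66.3 to 165 CPM in WTTR and 19.1 to 106 CPM in lacZTR libraries (log2 fold change 3.23, SE 0.53, adjusted p = 0.0307). The other large rises were *Cemip*, which degrades hyaluronan (3.52), *Prg4*, the lubricant lubricin (2.74), *Spp1* and *Ifitm1* (3.18). *Prg4* was at 5.24 to 29.4 CPM in sham and 45.6 to 258 CPM in traction libraries.

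Only *Csf3r* and *Trem1* of 12 neutrophil markers tested (*Ly6g* and *Ngp* did not pass the filter) and *Cxcl5* and *Csf3* of 24 wound cytokines were called, although all 12 and all 24 estimates were above 0. The shares called were 16.7% and 8.33%, against 6.19% of all genes tested. The sign was the same in both genotypes for 10 of the 12 markers and 15 of the 24 cytokines. The median log2 fold change of the neutrophil markers was 2.72, with 4.56 in *Tem1*WT/WT and 0.86 in *Tem1*lacZ/lacZ mice, and that of the cytokines was 1.97, with 3.91 and 0.34. Without WTTR 1 the medians were 1.51 and 0.89. *S100a8* and *S100a9*, abundant neutrophil transcripts that also stand on the list of wound-edge epidermal genes, had values of 3.02 (adjusted p = 0.125) and 3.26 (adjusted p = 0.132). The cells they came from were not tested. The summed level of the neutrophil markers was 145 to 169 CPM in WTSH, 535 to 9135 CPM in WTTR, 253 to 281 CPM in lacZSH and 356 to 625 CPM in lacZTR libraries, with the highest value in WTTR 1. On the log2 mean of these markers 6 of 6 traction libraries were above every sham library. On that of the cytokines 3 of 6 were, and the lacZTR libraries, at 0.427, -0.325 and 0.733, lay inside the sham range of -0.475 to 0.823. Of 14 markers of monocytes and macrophages only *Ms4a7* was called (0.64, from 0.63 in *Tem1*WT/WT and 0.65 in *Tem1*lacZ/lacZ mice), a share of 7.14%, near the 6.19% of all genes. By edgeR 0 of 9 T lymphocyte and 0 of 8 mast cell markers were called.

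Of 11 sebaceous gland markers tested, 4 fell and 0 rose, against 1.63% of all genes that fell, with a median log2 fold change of -1.10 (-1.39 in *Tem1*WT/WT and -0.78 in *Tem1*lacZ/lacZ mice) and the same sign in both genotypes for 11 of 11. *Krt79*, a keratin of the gland duct, was at 1110 to 2265 CPM in sham and 344 to 1175 CPM in traction libraries (log2 fold change -1.17, SE 0.25, adjusted p = 0.0332). *Dgat2l6*, *Awat2* and *Awat1*, acyltransferases that make the wax esters and other lipids of sebum, changed by -1.35, -1.42 and -0.94. Averaged over the list relative to the sham mean of the same genotype, the traction libraries lay between -1.96 and -0.520 and the sham libraries between -0.253 and 0.382, with no overlap. The summed level was 1811 to 2982 CPM in WTSH, 719 to 1531 CPM in WTTR, 2338 to 3550 CPM in lacZSH and 1476 to 1895 CPM in lacZTR libraries.

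Of 20 genes of fatty acid oxidation and lipid synthesis 3 fell and 0 rose. They were *Insig1* (-0.58, SE 0.10, adjusted p = 0.0307), which holds back cholesterol synthesis, and *Acadm* (-0.58) and *Hadhb* (-0.50), enzymes of mitochondrial fatty acid oxidation. *Sprr1a*, a protein of the cornified envelope, fell from 536 to 956 CPM in sham to 215 to 575 CPM in traction libraries, by -1.11 in *Tem1*WT/WT and -1.16 in *Tem1*lacZ/lacZ mice on the log2 scale, although it stands on a list of wound-edge genes whose median was 1.22 (0.60 without WTTR 1). Among the 12 largest falls were *Akr1c14*, a steroid dehydrogenase (-2.07), *Gsdma3*, a gasdermin of skin epithelium (-1.67), *Dact2*, an inhibitor of Wnt and TGF-β signalling (-1.58), *Sfrp4*, a secreted Wnt antagonist (-1.46), and *Irf4*, a transcription factor of dendritic and lymphoid cells (-1.40). *Akr1c14* was at 11.1 to 31.6 CPM in sham and 2.00 to 10.4 CPM in traction libraries, and *Mill1*, an MHC class I-like gene, at 83.6 to 260 CPM and 13.5 to 81.0 CPM. *Pyy*, a peptide hormone, had the largest fall (-2.93, SE 0.79, adjusted p = 0.049999), from 11.7 to 46.1 CPM in sham to 0 to 10.1 CPM in traction libraries. *Egr2*, an early growth response factor, was lower (-0.97) while *Fosl2*, an AP-1 subunit, was higher (0.87) among 15 immediate early genes. *Fosl2* changed by 1.37 in *Tem1*WT/WT and by 0.38 in *Tem1*lacZ/lacZ mice, where traction and sham libraries overlapped.

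Several lists that mark other tissue in the scar piece had medians below 0 without a called member. The median log2 fold change was -1.55 for 16 skeletal muscle genes, -1.16 for 15 white adipocyte genes, -0.99 for 20 hair follicle genes and -0.82 for 8 melanocyte genes, and 0 of them were called by edgeR. Single libraries moved several of these medians. The muscle median was -0.88 without WTSH 1, and the melanocyte median was -0.34 without WTSH 2 and -0.54 without WTTR 1. The adipocyte median was -0.44 without lacZSH 1, -1.77 without WTTR 1 and -2.24 without lacZTR 3. The summed muscle level was 1799 to 18160 CPM in WTSH and 448 to 2830 CPM in WTTR libraries, with 1693 to 4737 CPM in lacZSH and 2120 to 3630 CPM in lacZTR libraries. The adipocyte level was 2857 to 4265 CPM in WTSH and 405 to 2232 CPM in WTTR, with no overlap, and 876 to 13170 CPM in lacZSH and 618 to 6674 CPM in lacZTR libraries, which overlapped. Hair follicle levels were 17050 to 31060 CPM in WTSH and 4670 to 8501 CPM in WTTR but 4757 to 23920 CPM in lacZSH and 8955 to 15500 CPM in lacZTR libraries. The part of these tissues in the sebaceous, epithelial and lipid results was not tested. Of 15 epidermal markers 0 were called. Their median was -0.13 (-0.73 in *Tem1*WT/WT and 0.04 in *Tem1*lacZ/lacZ mice), and 5 of 15 estimates were above 0, among them those of the basal keratins *Krt5* (0.06) and *Krt14* (0.62). With 1 library left out the median lay between -0.37 (without lacZTR 2) and 0.01 (without lacZSH 1). On the mean of the list WTTR 1 was lowest, at -2.54 on the log2 scale. By edgeR 0 were called also of the following lists: 22 cell division genes, 16 respiratory chain subunits, 15 interferon genes, 15 complement genes, 10 Schwann cell genes and 7 red blood cell genes.

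**Figure D4:**
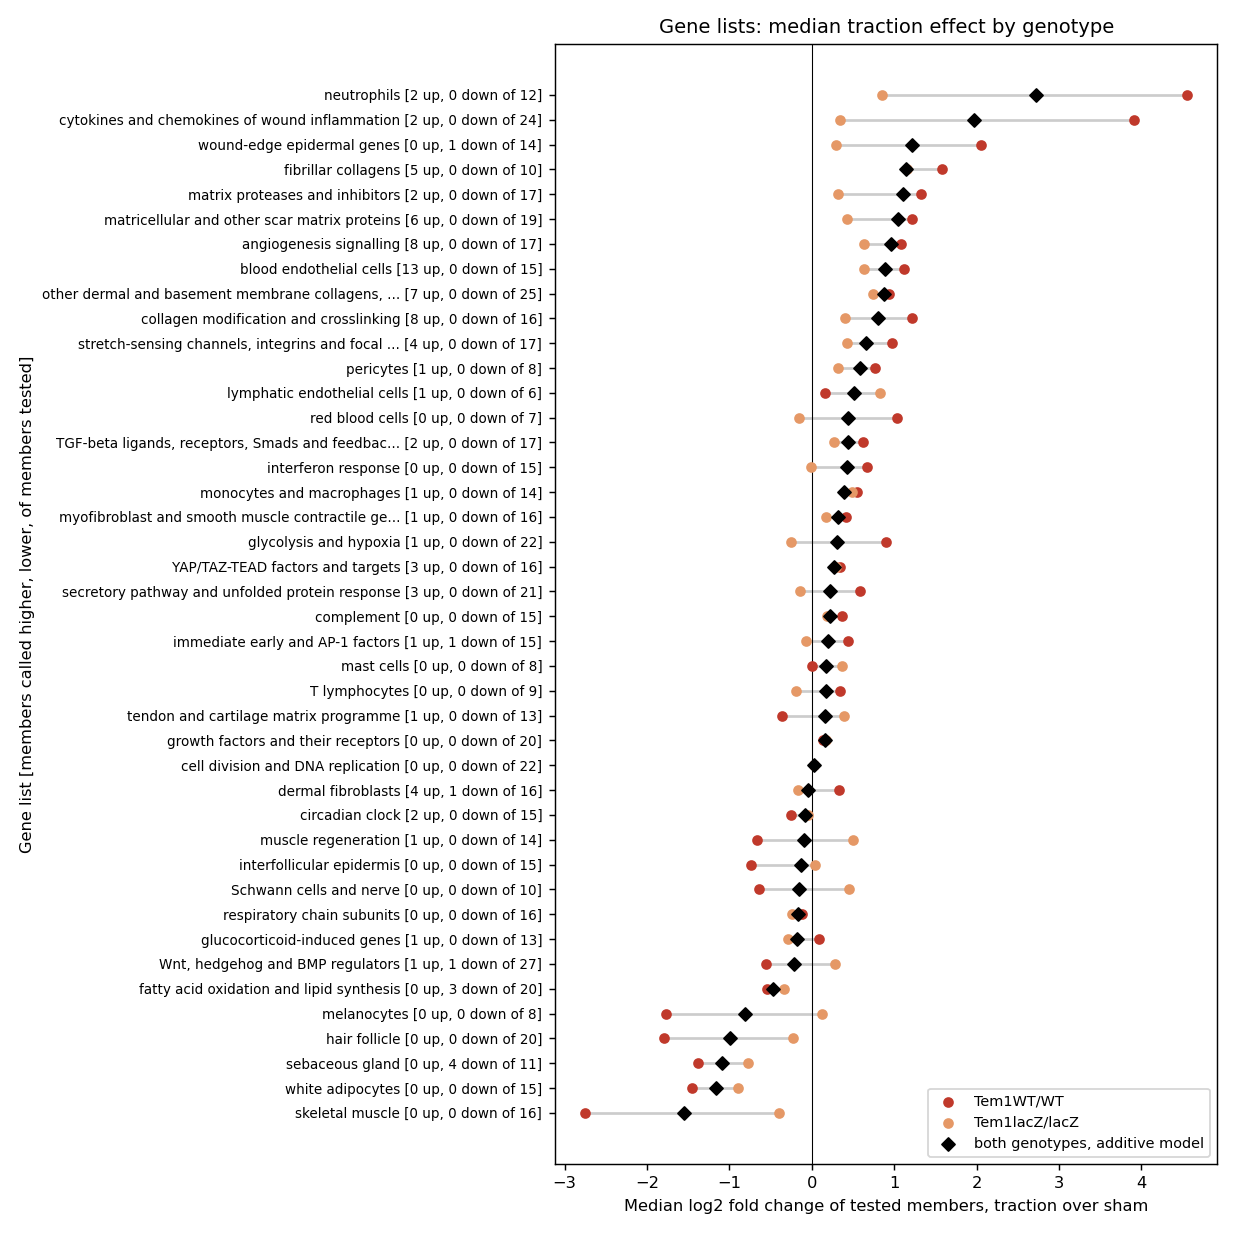
Median log2 fold change of the tested members, traction over sham (x axis), for 42 gene lists (y axis, with the number of members called higher and lower and the number tested). Red points are *Tem1*WT/WT, orange points *Tem1*lacZ/lacZ and black diamonds the additive model. The points of both genotypes lie above 0, with the larger median in *Tem1*WT/WT mice, for blood endothelial cells (1.12 and 0.63) and fibrillar collagens (1.58 and 1.16). They lie farther apart for neutrophils (4.56 and 0.86).

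The remaining lists had few called members. Of all genes tested 6.19% were called. The share was 14.3% for secretory pathway and 13.3% for clock genes. For glycolysis and hypoxia, glucocorticoid-induced, Wnt, hedgehog and BMP, muscle regeneration, and tendon and cartilage genes it was 4.55% to 7.69%. The latter shares lie near that of all genes. Glycolysis and hypoxia genes had a median of 0.31 in the additive model, from 0.90 in *Tem1*WT/WT and -0.26 in *Tem1*lacZ/lacZ mice, and 0.02 without WTTR 1. Only *Adm*, the vessel-dilating peptide adrenomedullin, was called of 22 (1.60). Genes of the secretory pathway had medians of 0.59 in *Tem1*WT/WT and -0.14 in *Tem1*lacZ/lacZ mice. The 3 called of 21 were *Creb3l1* (1.31) and *Creb3l2* (0.89), factors that expand the secretory route for collagen, and *Sec24d* (0.92), a coat protein of the vesicles that carry procollagen. *Npas2* (1.46) and *Cry1* (0.69) rose of 15 clock genes, *Fkbp5* (0.77) of 13 glucocorticoid-induced genes, *Dkk3* (0.71) of 27 Wnt, hedgehog and BMP regulators, where *Sfrp4* fell, and *Ncam1* (1.09), which nerve also makes, of 14 muscle regeneration genes. *Dkk3* changed by 1.10 in *Tem1*WT/WT and by 0.33 in *Tem1*lacZ/lacZ mice. *Fmod* was the called member of 13 tendon and cartilage genes.

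How far the pooled response came from each genotype was read from contrasts in a model of the 4 groups. Within *Tem1*WT/WT mice 1725 genes (9.15%) were called and within *Tem1*lacZ/lacZ mice 0, where the smallest adjusted p was 0.598 and 1530 genes had an unadjusted p under 0.05. DESeq2 called 28 and limma-voom 435 genes within *Tem1*lacZ/lacZ mice. The traction by genotype interaction was called for 0 genes by edgeR (smallest adjusted p 0.548, 1680 genes at an unadjusted p under 0.05) and for 69 by DESeq2. An interaction p under 0.05 before adjustment was found for 130 of the 1167 called genes (11.1%), against 8.91% of all genes. Of the 1167, 709 (60.8%) were also among the 1725, which is 41.1% of those, and 458 were not. All 1167 had the same sign in both genotypes, which the selection on a pooled effect favours, against 68.4% of all genes tested. In 1003 (85.9%) the change was larger in *Tem1*WT/WT mice, against 68.1% of all genes.

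Each genotype was then read on genes chosen in the other, whose libraries are separate. The 1057 genes that rose in *Tem1*WT/WT mice had a median log2 fold change of 1.19 there and 0.42 in *Tem1*lacZ/lacZ mice, where 952 of them were above 0, against 48.5% of all genes. The 668 that fell had medians of -1.56 and -0.37, and 578 were below 0 in *Tem1*lacZ/lacZ mice. Conversely, of the 1530 genes with an unadjusted p under 0.05 in *Tem1*lacZ/lacZ mice, 1373 (89.7%) had the same sign in *Tem1*WT/WT mice, against 68.4% of all genes tested. The 1067 that were higher had medians of 0.69 in *Tem1*lacZ/lacZ and 0.64 in *Tem1*WT/WT mice, and the 463 that were lower had -0.81 and -0.51. These genes are not independent of each other, and no test was made of the shares. Choosing genes in a genotype enlarges their median there, so the medians of a pair are not on equal terms.

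**Figure D5:**
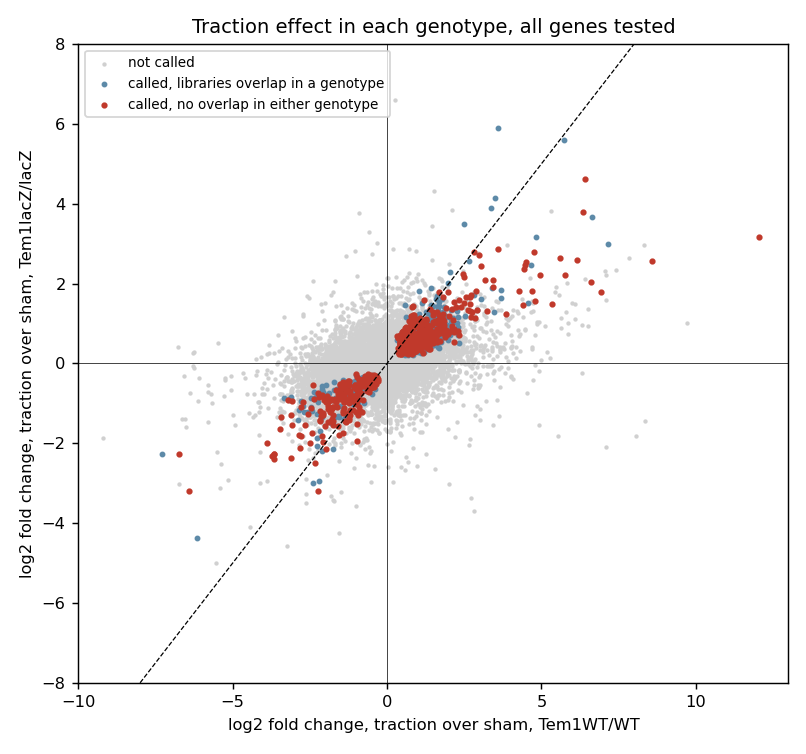
Log2 fold change with traction in *Tem1*lacZ/lacZ (y axis) against that in *Tem1*WT/WT mice (x axis) for all 18853 genes tested, with 1 point per gene and a dashed line of equal change. Blue and red points are the 1167 called genes, and the 554 red ones have no overlap between traction and sham libraries in either genotype. The called points lie in the quadrants of equal sign, and 1003 of them have the larger change in *Tem1*WT/WT mice.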

How the data were processed

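RNA-seq of 12 mouse scars was analysed. The authors prepared stranded poly(A) libraries, trimmed paired-end reads with fastp 0.20.0, aligned them to GRCm38 with HISAT2 2.1.0 and counted reads per gene with featureCounts 2.0.0. What the authors deposited are raw counts per gene and library, not normalized. The gene annotation, strand setting and treatment of multimapping reads are not given in the sources used here, so counts of paralogs and overlapping genes are uncertain.

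Genes were filtered with filterByExpr by group, scaled by TMM and fitted in edgeR 4.0.16 (robust quasi-likelihood, R 4.3.3) with genotype and treatment as terms, leaving 9 residual degrees of freedom. A gene was called at a p under 0.05 after Benjamini-Hochberg adjustment across the 18853 genes, two-sided. SE is the standard error of the log2 fold change implied by its quasi-likelihood F statistic. Library totals of 41536788 to 64644293 counts leave counting error small against the variation between mice, a biological coefficient of variation of 35.8%, for genes well above 0 counts. It is larger for genes near 0, such as *Csf3* in sham libraries (0 to 0.0949 CPM), whose fold changes are imprecise. A model of the 4 groups gave the effects within each genotype and the interaction. Gene lists were described by counts and medians without a set test. Named genes were *Cd248*, the 12 largest rises, the 12 largest falls and 6 smallest p among called genes whose mean log2 CPM reached 1 and with all 6 traction beyond all 6 sham libraries, and up to 3 called members per list and direction. A few genes that met this rule are not reported here. Other list members were named after seeing their values. The members, lists and tests were chosen with earlier results of these data known. Alternatives used DESeq2 1.42.0, limma 3.58.1, other filters and scalings, a replicate block and leaving out each library. Positions and promoters came from RefSeq tables of GRCm38, with a symbol matched for 17663 (93.7%) of the genes tested. Only the 250 bases before each start were used. Python 3.11.15 and matplotlib 3.10.9 drew the figures.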

Additional observations from a re-analysis of the deposited data

Results flagged for a closer look

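Of 214 groups of 6 libraries tested, 107 genes with 2 treatments each, 9 held a library far from the other 5 on the log2 CPM scale, and chance flags about 1 group in 20. In 2 of them WTTR library 1 stood apart: *Pyy* was at 0 CPM there against 2.097 CPM in the next lowest traction library and *Ms4a7* at 27.2 against 42.9 CPM. In 3 others lacZTR library 1 was the lowest traction library: *Adm* was at 6.06 against 22.5 CPM, and the complement genes *C1qa* and *C1qb* at 171.1 against 334.9 CPM and 203.7 against 340.2 CPM. WTSH library 1 was the lowest sham library for *Egfl7* (16.8 against 20.9 CPM) and *Serpine2* (33.5 against 43.8 CPM). *H2-M2* was lowest in WTTR library 3 (1.81 against 5.72 CPM), and *Krt27*, a keratin of the hair follicle, in lacZSH library 1 (384.1 against 1323 CPM).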

How the results depend on the processing

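Adjusted p values lay close under the threshold, and the counts of calls moved with the processing. Of the 1167 genes called over both genotypes together, 0 had the opposite sign in any of the 22 refits in which they were tested. Their selection on the same libraries made a kept sign close to assured. A value in every refit was had for 1088, since 79 did not pass the filter of 10 counts in every library. Their number was 767 with all genes that had a count, 757 with upper quartile normalization, 3454 with DESeq2's Wald test, 3421 with limma-voom, 776 with the replicate block, 1835 for the mean of both genotypes' contrasts, 461 at a log2 fold change of at least 1, and 0 without the genotype term (4443 at an unadjusted p under 0.05) or at an adjusted p under 0.01. The genes that also separated in both genotypes (554) were 926 by DESeq2, 255 at a log2 fold change of at least 1, and 0 without the genotype term or at an adjusted p under 0.01. Called list members (89 of 635 tested) were 180 by DESeq2, 176 by limma-voom, 138 for the mean of contrasts, 51 at a log2 fold change of at least 1, and again 0 for the same 2 settings. Within *Tem1*WT/WT mice the count (1725) was 1011 with all genes, 4047 by DESeq2 and 748 by limma-voom. Within *Tem1*lacZ/lacZ mice DESeq2 called 28 and limma-voom 435 genes, and DESeq2 called 69 interactions. The cause of these differences was not tested.

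With 1 library left out, the ranges were 0 to 3368 genes over both genotypes, 0 to 2618 separated in both, 0 to 163 list members, 0 to 2861 within *Tem1*WT/WT mice (2861 without WTTR 2), 0 to 73 within *Tem1*lacZ/lacZ mice (73 without lacZTR 1) and 0 to 31 interactions (31 without WTTR 2). A group left with 2 libraries was fitted with the spread of all groups.

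Same-numbered libraries came from different mice, and the 18 same-numbered pairs correlated between -0.324 and 0.25, with 8 over 0.1, so the numbers were not taken to pair samples. With the replicate block the common genes were 388, and 0 genes were called in *Tem1*lacZ/lacZ mice or for the interaction.

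Of 107 single genes named, no called one changed direction, which the selection also favours. The uncalled ones that did were *Cd3d* (-0.0096 with upper quartile normalization, -0.33 by limma-voom, -0.0935 with the block, -0.017 without WTSH 2, -0.031 without WTSH 3, -0.70 without WTTR 1, and -0.70 to 0.28 over libraries left out), *Cd3e* (-0.0526 by limma-voom, -0.49 without WTTR 1, range to 0.46), *Cpa3* (0.028 without WTSH 3, 0.050 without WTTR 3, range from -0.28), *Krt14* (-0.29 by limma-voom), *Krt5* (-0.019 with upper quartile normalization, -0.12 by limma-voom, -0.029 without WTTR 1, -0.0936 without lacZTR 1, range to 0.15), *Sox10* (-0.029 without lacZTR 2, range to 0.38) and *Top2a* (0.035 without WTSH 2, range from -0.26).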

Other observations

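The genes described here were picked after their values were seen and outside the fixed lists, and none was given a test beyond its own adjusted p over all genes. The following 5 genes were called with no overlap between the 6 sham and the 6 traction libraries. *Sox18*, a transcription factor of endothelium, was at 9.33 ± 1.78 CPM in sham and 23.3 ± 6.55 CPM in traction libraries (SD, n = 6 each; log2 fold change 1.31, SE 0.21, adjusted p = 0.0307 by edgeR). *Notch4*, an endothelial Notch receptor, was at 6.53 ± 1.37 and 21.7 ± 10.97 CPM (1.61, SE 0.26), *Gja4*, a connexin of arteries, at 4.07 ± 0.827 and 8.22 ± 2.27 CPM (1.00), *Ecscr* at 14.2 ± 3.30 and 29.7 ± 8.94 CPM (1.06) and *Pcdh12* at 3.37 ± 0.708 and 7.58 ± 4.31 CPM (1.08). *Ephb4*, a receptor of veins, was called as well, at 0.84 in *Tem1*WT/WT and 0.92 in *Tem1*lacZ/lacZ mice. The protease genes *Adamts4* and *Adamts7* rose by 2.01 and 1.98 on the log2 scale, and the elastin-associated gene *Emilin1* by 1.90.

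*Mgl2*, a lectin of dendritic cells and dermal macrophages, was at 66.5 ± 27.4 CPM in sham and 25.6 ± 13.8 CPM in traction libraries (log2 fold change -1.47, SE 0.33, adjusted p = 0.0361). *Cd209a* (-0.95), *Cd209e* (-1.41) and *Xcr1*, a chemokine receptor of cross-presenting dendritic cells (-1.45), were lower as well, each separate within both genotypes though not over all 12 libraries. Levels of *Xcr1* were low, at 3.58 ± 1.04 and 1.41 ± 0.687 CPM. *Epcam*, an adhesion molecule of epithelia, was lower, at 236 ± 68.8 and 108 ± 44.9 CPM (-1.17), as were *Cxadr*, at 303 ± 65.3 and 166 ± 52.5 CPM (-0.88), *Ocln*, of tight junctions, at -1.16 and *Dsg2*, a desmosomal cadherin, at -0.85. These genes were singled out, and of the 15 epidermal markers 0 were called. The chemokine genes *Ccl20* (-1.96) and *Ccl27a* (-1.66) were lower too. *Insig2*, a partner of *Insig1* in sterol sensing, fell with it, at 148 ± 39.5 and 75.2 ± 28.2 CPM (-1.02, SE 0.17). How much of these differences came from the amount of epidermis, gland or hair in each scar piece was not tested.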
